A study of Mus musculus with 2 samples.

Results

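Immunoglobulin genes encode the heavy, kappa and lambda chains of antibodies, and in the mouse they lie in the heavy chain locus on chromosome 12, the kappa locus on chromosome 6 and the lambda locus on chromosome 16. They were examined in RNA of sorted mammary basal cells, which form the outer cell layer of the gland's ducts, in a library from mice given clodronate liposomes (CL basal, here CL) and a library from controls (Ctrl basal, here Ctrl). The members were picked by gene name from the raw count table, and 393 of its 49492 genes are immunoglobulin constant (C), variable (V), diversity (D) or joining (J) genes. The group was selected on the difference between these same 2 libraries, and single genes are described where they had at least 20 counts summed over both, which 14 genes reached. The counts that chose them are therefore given as a description, without a test.

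Both groups were adult wild-type female mice, 8 to 10 weeks old by the methods of the study, and both samples were labelled day 7. The CL group received clodronate liposomes by 3 intraperitoneal injections. Macrophages take up these lipid vesicles and die, so the treatment removes macrophages. The control is labelled as having no treatment, whereas the design text of the series names saline. Cells were sorted as CD24+ CD29hi after removal of cells stained for CD45 (white blood cells), CD31 (endothelium) and TER119 (red blood cells), a gate meant to leave out the B cells and plasma cells that make antibodies. Each group was a single library (1 per group), so none of the differences could be held against the spread between replicates. How many mice stood behind each library is not given in the sources used here.

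An antibody gene is assembled in developing B cells by joining a V, a J and, in the heavy chain, a D segment ahead of a constant gene. Each B cell carries its own V and J choice and passes it to its descendants. *Ighm* and *Ighd* encode the constant parts of IgM and IgD, the classes carried by B cells that have not switched class. The *Ighg* genes encode IgG, *Igha* IgA and *Ighe* IgE, which are reached by class switching. *Igkc* is the single constant gene of the kappa chain, and the *Iglc* genes are those of the lambda chain. Plasma cells, the antibody-secreting descendants of B cells, make far more of these RNAs per cell than resting B cells.

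The table held 38962512 counts for CL and 37846008 for Ctrl. Immunoglobulin genes made up 32.5 CPM (read counts scaled to a library total of 1e6) in CL and 18.7 in Ctrl, so all values below are small. Genes of basal cells were abundant in both libraries, with 665919 and 639885 counts in CL and Ctrl over a list of 8 genes. Most of these are keratins and contractile genes, beside *Trp63* and *Oxtr*. Low counts were more often even than odd, at 68.7% of the values from 1 to 20 in CL and 67.9% in Ctrl. Among V genes with a count, 28 of 31 values in CL and 16 of 22 in Ctrl were even. The mates of a read pair thus appear to have been counted separately, and intervals, which cover counting error only, are too narrow. Of 245 genes that lie wholly inside exons of another, well counted gene, 232 had counts, so a read over several genes appears to have been counted for each of them. Sums of V, J and C counts may then share reads and are not independent of each other.

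The V genes that reached the count limit are shown first by their germline sequence. These are the last 60 bases of each V segment with at least 20 counts, 5′ to 3′ on the gene's own strand, taken from GENCODE release M21 transcripts (GRCm38). They are shown because this end of V joins the D or J segment and begins the loop that differs most between antibodies. Capitals mark the motif TANTNCTGN, which in these genes spells a tyrosine, a tyrosine or phenylalanine, and the conserved cysteine that precedes that loop. The motif was found in the last 60 bases of 259 of the 346 V genes (74.9%) on their own strand, and in 263 (76%) when both strands were searched.
Igkv1-88: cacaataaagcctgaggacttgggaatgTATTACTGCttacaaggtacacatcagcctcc
Igkv9-120: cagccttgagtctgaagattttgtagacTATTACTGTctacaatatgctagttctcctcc
Igkv4-70: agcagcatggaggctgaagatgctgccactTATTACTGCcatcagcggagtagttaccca
Ighv2-3: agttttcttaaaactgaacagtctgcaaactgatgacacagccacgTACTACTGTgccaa
Ighv1-81: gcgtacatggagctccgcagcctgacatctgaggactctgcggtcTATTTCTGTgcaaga
Ighv14-3: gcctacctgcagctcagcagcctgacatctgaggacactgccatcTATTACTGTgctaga
Ighv7-1: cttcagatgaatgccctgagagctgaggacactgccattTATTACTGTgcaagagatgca

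These stretches lie at chr6:68862265-68862324 (minus strand) for *Igkv1-88*, chr6:68050397-68050456 (plus) for *Igkv9-120* and chr6:69267888-69267947 (minus) for *Igkv4-70*. Those of the heavy chain lie on the minus strand, at chr12:113611187-113611246 for *Ighv2-3*, chr12:115920279-115920338 for *Ighv1-81*, chr12:114059845-114059904 for *Ighv14-3* and chr12:113896408-113896467 for *Ighv7-1*. All lie in exons of genes that GENCODE annotates as V genes and not as V pseudogenes. *Igkv1-88* and *Igkv4-70* stand on the strand opposite to the kappa J genes, so that joining them requires an inversion of the DNA between. The 3 kappa genes lie 1454 to 2672 kb from the J cluster and the 4 heavy chain genes 181 to 2490 kb, so the genes did not come from a single stretch of either locus.

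The V genes with at least 20 counts were, with 1 exception, at 0 in Ctrl. *Igkv1-88* had 64 counts in CL and 0 in Ctrl, which is at least 21.3-fold higher when 0 is set to its limit of 3 counts. *Igkv9-120* had 40 counts in CL and 0 in Ctrl (at least 13.3-fold higher), and *Igkv4-70* had 36 and 0 (at least 12-fold). In the heavy chain, *Ighv2-3* had 34 counts in CL and 0 in Ctrl (at least 11.3-fold). *Ighv1-81* had 26 and 0 counts (at least 8.65-fold), and *Ighv14-3* had 24 and 0 (at least 7.98-fold). These 6 genes held 224 of the 365 V counts in CL, a share of 61.4%. A gene at 0 in one library passes the limit of 20 counts only through the other library, so that these genes differ is a consequence of that limit. The exact 95% intervals of the log2 ratio began somewhat lower than these bounds, at 4.07 for *Igkv1-88* and 2.59 for *Ighv14-3*, and both would be lower still if mates were counted once. In bulk RNA, a change in the number of cells that carry a transcript and a change in RNA per cell cannot be told apart, and with 1 library per group the treatment and the library cannot be told apart either.

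*Ighv7-1* was the exception among the V genes with at least 20 counts. It had 38 counts in CL and 59 in Ctrl, a log2 ratio of -0.64 (95% exact binomial interval -1.27 to -0.03, scaled to library size). It took 59 of the 73 heavy chain V counts of Ctrl (80.8%, exact interval 69.9 to 89.1%) and 38 of 164 in CL (23.2%, 16.9 to 30.4%). The gene was present in both libraries, and the other heavy chain V genes held only 14 counts in Ctrl against 126 in CL.

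Across both libraries, 46 of the 346 V genes had any count, 31 in CL and 22 in Ctrl. Only 7 had counts in both, which is 22.6% of the V genes found in CL and 31.8% of those found in Ctrl. Among all genes, most of them with far more counts, those shares were 91.4% and 89.8%. Among T cell receptor V genes, also low in counts, 5 were found in both libraries, 41.7% of the 12 in CL and 38.5% of the 13 in Ctrl. Beside *Ighv7-1* and the 6 genes at 0 in Ctrl, another 39 V genes with counts summed to 103 in CL and 67 in Ctrl, a log2 ratio of 0.62 (0.16 to 1.08). None of them reached 20 counts. The nearest below the limit were *Ighv1-50* and *Igkv6-15*, each with 18 counts in CL and 0 in Ctrl, and the nearest above it was *Ighv14-3* with 24. In Ctrl, *Igkv12-44* was the highest kappa V gene, with 12 counts there and 0 in CL. Of 129 V pseudogenes 2 had a count, against 44 of 217 other V genes.

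By V family, members of which share much of their sequence, the *Igkv1* genes had 66 counts in CL and 2 in Ctrl, and the *Ighv1* genes, the largest heavy chain family, had 54 and 6. The *Igkv4* family had 42 and 12 counts, *Igkv9* 40 and 0, *Ighv2* 35 and 0, *Igkv6* 31 and 7, and *Ighv14* 24 and 2. Within each of the families *Igkv1*, *Igkv9*, *Ighv2* and *Ighv14*, nearly all CL counts belonged to the single gene named above. The other families with counts had between 0 and 12 counts in a library, except *Ighv7* (38 and 59, all from *Ighv7-1*).

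Near-identical V genes can share reads. All 313 windows of 50 bases in *Igkv1-88* and all 314 in *Ighv7-1* occur in no other transcript of the annotation. The share of such windows was 88.4% for *Ighv1-81*, 82.2% for *Ighv2-3*, 79.1% for *Ighv14-3*, 74.7% for *Igkv9-120* and 36.1% for *Igkv4-70*, whose counts are the least certain to be its own. The closest relative of each of these 7 V genes, 79.3 to 94.3% identical over its length, was at 0 counts in both libraries. Counts of *Igkv4-70* could in part belong to *Igkv4-59*, with which it shares 93 of 330 windows and which was also at 0.

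**Figure D1:**
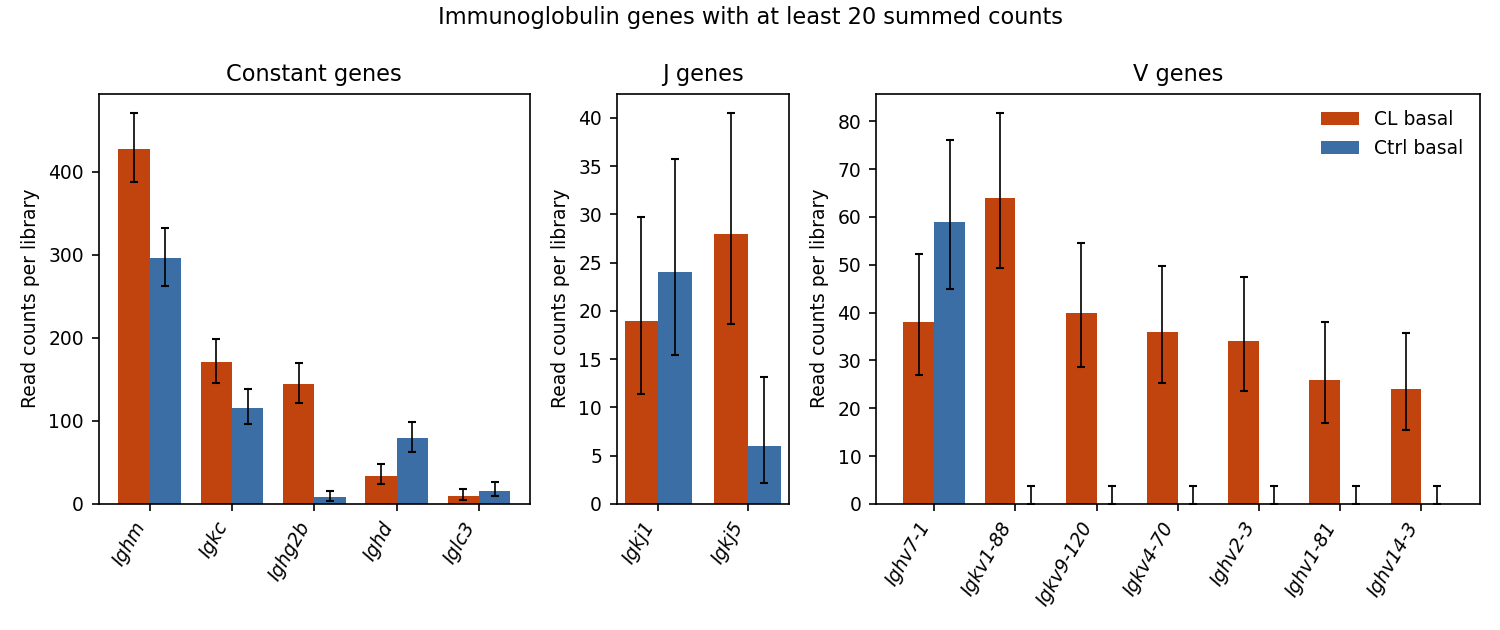
Read counts (y axis, linear from 0) of the 14 immunoglobulin genes with at least 20 summed counts in CL and Ctrl, for constant, J and V genes, with exact 95% Poisson intervals for counting error. The 6 V genes to the right of *Ighv7-1* have 24 to 64 counts in CL and 0 in Ctrl.

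Among constant genes, *Ighm* had the most counts in both libraries and *Ighg2b* differed most. *Ighm* (chromosome 12, 113418558 to 113422730, minus strand) had 428 counts in CL and 296 in Ctrl, a log2 ratio of 0.53 (95% exact binomial interval 0.31 to 0.75). *Ighg2b* (chromosome 12, 113302965 to 113307933, minus strand) had 144 counts in CL and 8 in Ctrl, a log2 ratio of 4.17 (3.15 to 5.41), or 18-fold. *Ighd* (chromosome 12, 113406604 to 113416324) went the other way, with 34 counts in CL and 79 in Ctrl, a log2 ratio of -1.22 (-1.84 to -0.62). The 2 genes of unswitched B cells thus differed in opposite directions, while the switched class IgG2b was higher in CL.

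The other heavy chain constant genes were near the limit of detection. *Ighg1* had 10 counts in CL and 0 in Ctrl, *Ighg2c* had 0 and 5, and *Igha* had 3 and 0. *Ighg3* and *Ighe* were at 0 in both libraries, where 3 counts, the limit that a count of 0 allows, correspond to 0.077 CPM in CL and 0.0793 in Ctrl. Most of *Ighg2b* can be told from other genes, since 95.9% of its 2628 windows of 50 bases occur nowhere else, and 70 windows are shared with *Ighg2c*.

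Shares within a library do not depend on scaling. IgG genes made up 154 of the 619 heavy chain constant counts in CL (24.9%, exact interval 21.5 to 28.5%) and 13 of 388 in Ctrl (3.35%, 1.8 to 5.66%). *Ighd* made up 5.49% (3.83 to 7.59%) in CL and 20.4% (16.5 to 24.7%) in Ctrl. *Ighm* made up 69.1% (65.3 to 72.8%) and 76.3% (71.7 to 80.4%), in the same order. The mix of classes in CL therefore held more IgG2b and less IgD than that in Ctrl.

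Light chain RNA was mostly kappa. *Igkc* (chromosome 6, 70726435 to 70726966, plus strand) had 171 counts in CL and 116 in Ctrl, a log2 ratio of 0.56 (0.21 to 0.91). *Iglc3* (chromosome 16, 19065230 to 19065681, minus strand) had 10 and 16 counts, a log2 ratio of -0.68 (-1.98 to 0.55), and 93 of its 452 bases overlap the opposite-strand gene *2010309G21Rik*, which had 10 and 13. *Iglc2* had 10 counts in CL and 6 in Ctrl, *Iglc1* had 0 and 2, and *Iglc4* was at 0 in both. Kappa was 89.5% (84.3 to 93.5%) of light chain constant counts in CL and 82.9% (75.6 to 88.7%) in Ctrl, intervals that overlap.

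On the scale of CPM per kilobase of exon, *Igkc* was the highest constant gene, at 8.36 in CL and 5.68 in Ctrl. *Ighm* followed at 5.9 and 4.09, and *Ighg2b* stood at 1.4 in CL and 0.0779 in Ctrl. *Igkv1-88* reached 4.6 in CL on this scale, above *Ighg2b* and every other V gene. In Ctrl the highest V gene, *Ighv7-1*, stood at 4.24. For comparison, *Cd79a*, a signalling chain of the B cell receptor, was at 1 in CL and 0.877 in Ctrl.

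The kappa J genes are short enough to be shown as whole segments, from the same transcripts, on the plus strand of chromosome 6 from chr6:70722562-70722599 (*Igkj1*) to chr6:70723886-70723923 (*Igkj5*). They are shown because a different one of them had the most counts in each library. Capitals mark the motif TTCGGNNNNGGN, which encodes the phenylalanine followed by spaced glycines found in light chain J segments. It was found in 8 of the 14 J genes of the 3 loci (57.1%, on their own strand or when both strands were searched) and not in *Igkj3*. The deposited table gives *Igkj2* 43 bases and *Igkj5* 42, a few more at the 3′ end than the 39 and 38 shown.
Igkj1: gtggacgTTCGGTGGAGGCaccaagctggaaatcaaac
Igkj2: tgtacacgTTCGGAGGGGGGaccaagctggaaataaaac
Igkj3: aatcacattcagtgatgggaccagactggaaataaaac
Igkj4: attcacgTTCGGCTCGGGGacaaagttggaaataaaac
Igkj5: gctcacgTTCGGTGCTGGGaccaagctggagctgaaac

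*Igkj5* had 28 counts in CL and 6 in Ctrl, a log2 ratio of 2.22 (95% exact binomial interval 0.92 to 3.78). *Igkj1* had 19 counts in CL and 24 in Ctrl, a log2 ratio of -0.34 (-1.29 to 0.59). *Igkj2* had 7 and 8 counts, *Igkj4* 3 and 1, and *Igkj3* 2 and 0. *Igkj5* thus led the kappa J genes in CL with 47.5% of their counts (34.3 to 60.9%), and *Igkj1* led in Ctrl with 61.5% (44.6 to 76.6%). In CL *Igkj1* held 32.2% (20.6 to 45.6%), and in Ctrl *Igkj5* held 15.4% (5.86 to 30.5%). With counts halved, as if each pair of mates were 1 count, the intervals of the *Igkj5* share widened to 28.9 to 66.6% in CL and 3.29 to 38.7% in Ctrl and overlapped. A read reaches beyond a gene of 38 bases, so J counts per length cannot be set beside those of the V and C genes.

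In the heavy chain no J gene reached 20 counts. *Ighj3* had 14 counts in CL and 0 in Ctrl, *Ighj2* 3 and 0, *Ighj4* 3 and 1, and *Ighj1* 2 and 3. Of 20 D genes, at most 23 bases long, 2 had a single count each, both in Ctrl. Among the lambda genes *Iglj2*, whose bases lie within an *Iglc2* exon, had 5 and 3 counts, and *Iglj3* had 5 in both.

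**Figure D2:**
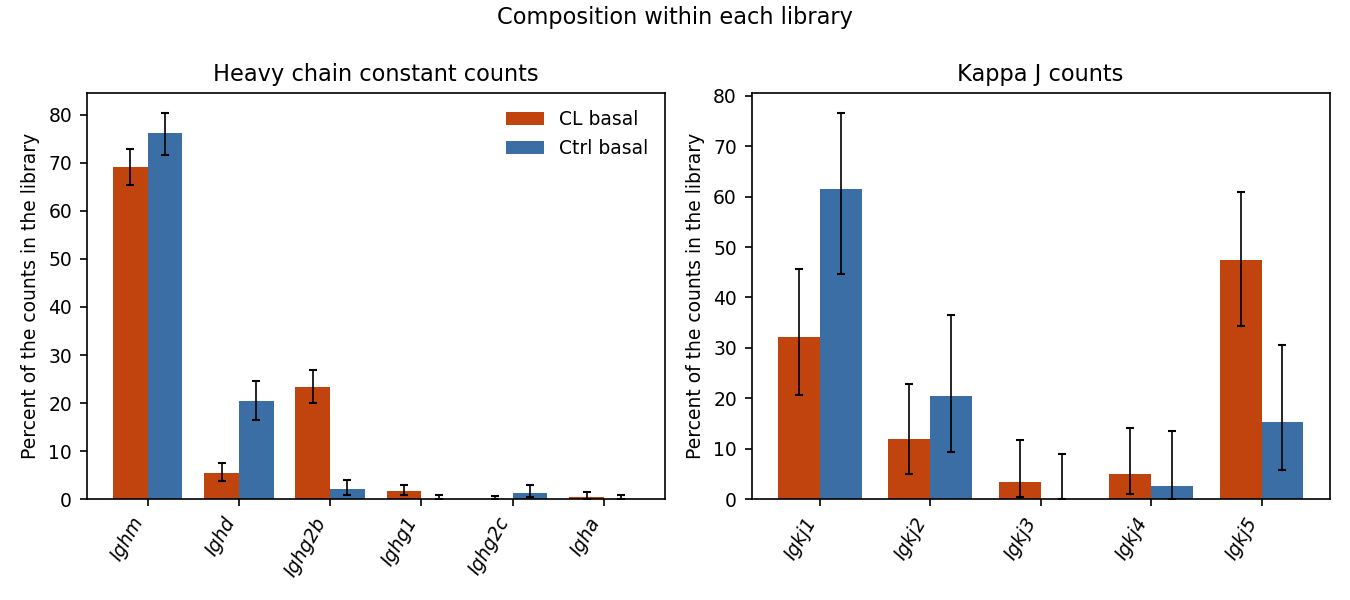
Percent of heavy chain constant counts (left) and of kappa J counts (right) taken by each gene within CL and Ctrl, with exact 95% binomial intervals for counting error. *Ighg2b* takes 23.3% of heavy constant counts in CL and 2.06% in Ctrl, and *Igkj5* takes the largest share of kappa J counts in CL only.

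Summed by class, the ratio of CL to Ctrl was above 1 for the C, V and J genes of the heavy and kappa chains, and higher for V than for C genes. Heavy chain constant genes summed to 619 counts in CL and 388 in Ctrl, a log2 ratio of 0.67 (95% exact binomial interval 0.49 to 0.86). Heavy chain V genes summed to 164 and 73, a log2 ratio of 1.16 (0.76 to 1.58), or 3.17 without *Ighv7-1*, and with all genes its interval overlaps that of the constant genes. Kappa V genes summed to 199 and 48, a log2 ratio of 2.05 (1.59 to 2.53). Heavy chain J genes summed to 22 and 4 counts (2.46, 0.90 to 4.45) and kappa J genes to 59 and 39 (0.59, -0.01 to 1.22).

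The lambda classes had few counts and wide intervals. Lambda constant genes summed to 20 counts in CL and 24 in Ctrl (log2 ratio -0.27, -1.20 to 0.65), lambda V genes to 2 and 5, and lambda J genes to 10 and 8. All 393 genes together held 1266 counts in CL and 707 in Ctrl, a log2 ratio of 0.84 (0.70 to 0.97), or 1.79-fold.

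How the counts spread over genes also differed. The effective number of V genes (the inverse of the summed squared shares) was 11.3 in CL and 4.17 in Ctrl. For heavy chain V genes alone it was 6.29 in CL and 1.51 in Ctrl, where *Ighv7-1* dominated. For kappa V genes it was 5.27 and 8.86, so kappa V counts were more concentrated in CL although there were more of them.

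**Figure D3:**
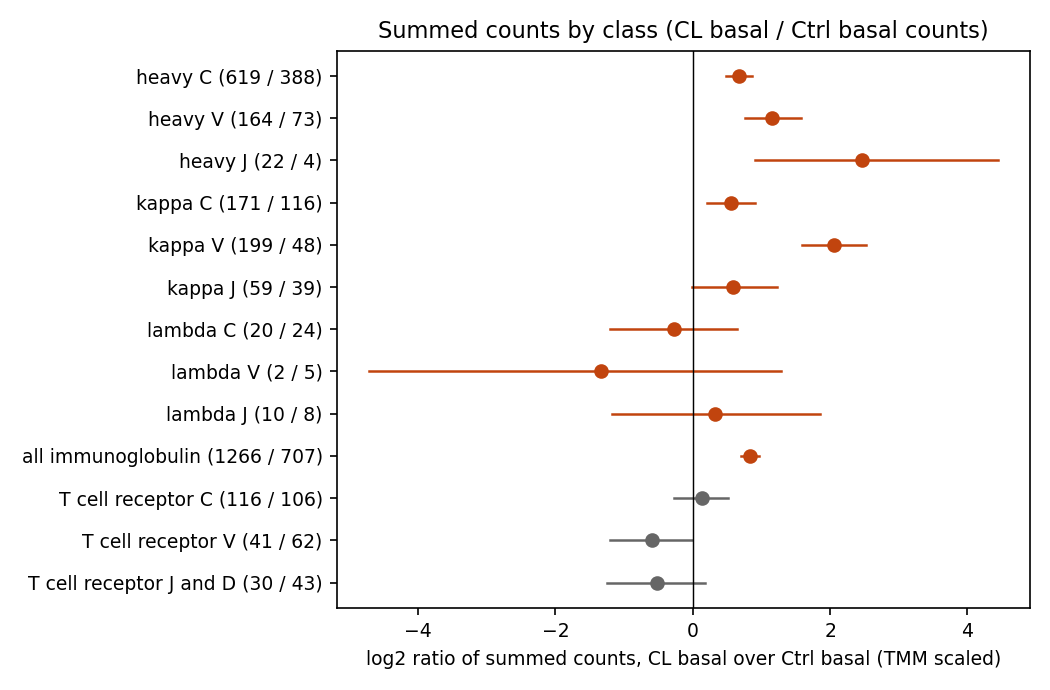
Log2 ratio of summed counts, CL over Ctrl, by chain and segment, with exact 95% binomial intervals for counting error; the counts of both libraries stand beside each class name. Kappa V (2.05) and heavy V (1.16) lie to the right of their constant genes (0.56 and 0.67), and the T cell receptor classes lie at 0.13, -0.60 and -0.52.

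The immunoglobulin genes can be set beside all genes. With a prior count of 2, which draws low counts towards no change, 8 of the 14 genes (57.1%) were at least 2-fold higher in CL, against 2.07% of all 17356 genes with at least 20 counts. They were *Ighg2b*, *Igkj5* and the 6 V genes at 0 in Ctrl. *Ighd* alone was at least 2-fold lower, which is 7.14% of the 14 against 4.78% of all genes, and the other 5 lay between. These shares changed with the count limit. Of the 69 genes with any count 18 (26.1%) were higher and 17 (24.6%) lower, against 5.38% and 12.9% of all genes with a count. The near-even split of the 69 rests on ties at the 2-fold line. Genes with 2 counts in Ctrl and 0 in CL, such as *Ighv1-76* and *Iglc1*, were called lower. Those with 2 in CL and 0 in Ctrl, such as *Ighv1-55* and *Iglv1*, fell just short of higher. The 18 and 17 therefore do not show that the lean towards higher is lost without the limit. Of the 4 genes with at least 100 counts 1 was higher and 1 lower. The median log2 fold change was 2.80 over the 14 genes, or 2.45 with the genes at 0 in Ctrl set to their lower bound, and -0.01 over all genes. It depends on the prior count, at 3.11 with a prior count of 0.5 and 2.06 with 5, where that over all genes remained -0.01. Since the group was selected on this contrast, and 6 of the 14 genes passed through CL alone, these shares describe the group and support nothing further.

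A count of 0 in one library with at least 20 in the other was rare. It occurred in Ctrl for 15 genes (0.0864% of 17356), of which 6 were immunoglobulin V genes and 9 were others. It occurred in CL for 0.0576% of genes, none of them an immunoglobulin gene. Immunoglobulin genes with fewer counts (55 genes with 1 to 19) had at most 18 counts in CL and at most 12 in Ctrl, and 324 genes had 0 in both.

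**Figure D4:**
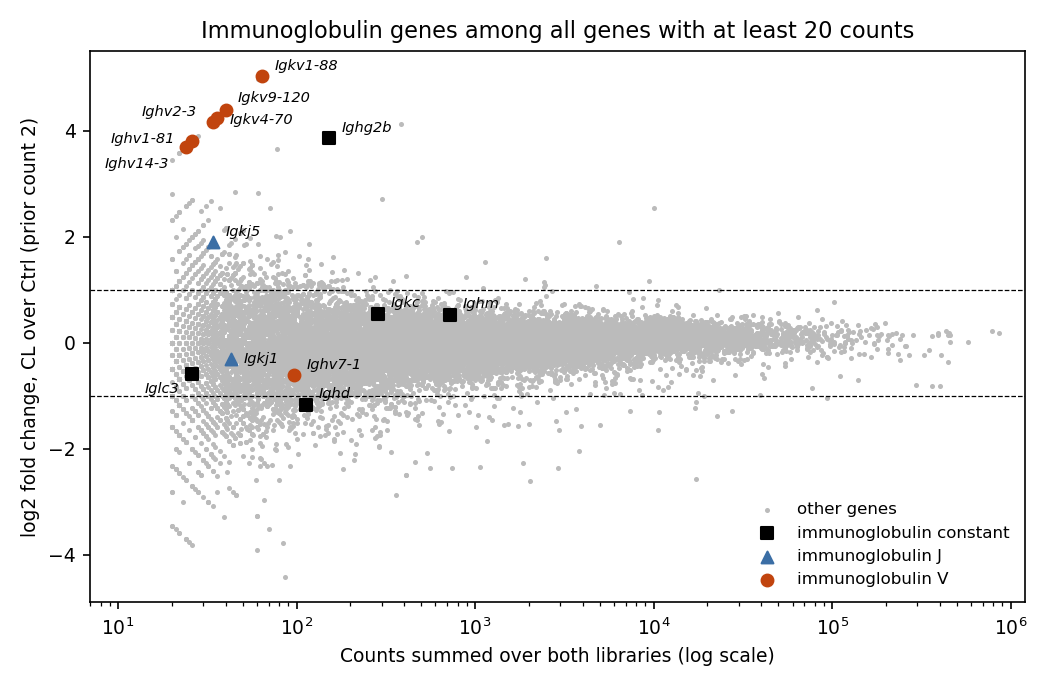
Log2 fold change of CL over Ctrl (y axis, prior count of 2) against counts summed over both libraries (x axis, log scale) for all 17356 genes with at least 20 counts, with the 14 immunoglobulin genes marked by segment and dashed lines at 2-fold. The 6 V genes at 0 in Ctrl and *Ighg2b* lie between 3.70 and 5.04, and *Ighm* and *Igkc* lie near 0.5 (0.53 and 0.55).

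Genes of B cells other than the antibody genes were detected in both libraries. Of a list of 15 B cell genes, 14 had at least 20 counts, of which 1 was at least 2-fold higher and 2 lower in CL, with a median log2 fold change of -0.12. *Cd79a* had 56 counts in CL and 49 in Ctrl, its partner *Cd79b* 12 and 14, and *Ms4a1*, which encodes CD20, 16 and 22. *Pax5*, the transcription factor of B cell identity, had 204 and 209 counts, a log2 ratio of -0.04 (-0.32 to 0.25). *Cd22*, an inhibitory receptor of B cells, was higher in CL (54 and 22 counts, 1.29, 0.55 to 2.08). *Cr2*, a complement receptor of mature B cells and follicular dendritic cells, was lower (44 and 171, -1.96, -2.47 to -1.48), as was *Fcrla* (6 and 18). *Fcer2a*, the IgE receptor CD23 of mature B cells, had 21 and 42 counts. The list summed to 1238 counts in CL and 1507 in Ctrl, a log2 ratio of -0.29 (-0.40 to -0.18), which was -0.17 (-0.28 to -0.05) without *Cr2* and -0.29 (-0.44 to -0.14) without *Cd72*, a receptor of B cells with 604 and 734 counts. Without both, the other genes summed to 590 and 602, a log2 ratio of -0.03 (-0.20 to 0.13). These genes were left out after seeing the data.

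Genes of plasma cells gave no single direction. *Jchain*, the chain that joins IgM and IgA into polymers, had 24 counts in CL and 11 in Ctrl, a log2 ratio of 1.12 (0.04 to 2.30). *Tnfrsf13b*, a receptor for survival factors, had 14 and 3 counts, *Pou2af1*, a coactivator of immunoglobulin promoters, 24 and 42, and *Irf4* 67 and 75. *Mzb1*, an endoplasmic reticulum protein of plasma cells, had 0 and 2, and *Tnfrsf17*, which encodes BCMA, was at 0 in both. Of the 8 genes, 5 had at least 20 counts, and the list summed to 158 and 172 counts. None of the 5 was called 2-fold apart at a prior count of 2, but *Jchain*, higher in CL, fell only just short of the line. Secretory genes that epithelium also uses (*Sdc1*, *Xbp1*, *Prdm1*, *Txndc5*, *Fkbp11* and *Eaf2*) summed to 16956 and 15638 counts, with a median of 0.08. *Eaf2* was the only one called 2-fold apart (16 and 34), and it lay only just past the line. Rounded to 2 decimals, the log2 fold changes of *Jchain* and *Eaf2* were equal in size and opposite in sign.

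*Rag1*, *Rag2* and *Dntt*, the enzymes of V(D)J joining, and *Igll1*, for a part of the surrogate light chain of developing B cells, were at 0 in both libraries. *Vpreb1*, which encodes another part of the surrogate light chain, had 37 counts in CL and 38 in Ctrl. Genes for receptors and transport of immunoglobulin held 1021 and 919 counts over 11 genes, none of the 6 with at least 20 counts was 2-fold apart, and the median was 0.04. *Pigr*, which carries IgA and IgM across epithelium, had 25 and 28 counts, and *Fcgrt*, the IgG transporter, had 387 and 425. *Fcmr*, the IgM receptor, had 45 and 25 counts, a log2 ratio of 0.84 (0.11 to 1.61), and *Trim21*, a cytosolic antibody receptor, had 480 and 357 (0.42, 0.22 to 0.63).

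Other leukocyte lists give the surroundings of these values. The 7 pan-leukocyte genes summed to 1129 counts in CL and 1278 in Ctrl, a log2 ratio of -0.18 (-0.30 to -0.07), of which *Arhgdib* had 423 and 556. None of the 6 with at least 20 counts was 2-fold apart, and *Ptprc*, which encodes CD45, the antigen used to sort white blood cells out, had 521 counts in CL and 537 in Ctrl. Genes of T and NK cells summed to 505 and 435 counts, with none of 8 2-fold apart. T cell receptor genes, which are assembled by the same kind of joining, held 187 counts in CL and 211 in Ctrl over 262 genes, a log2 ratio of -0.18 (-0.47 to 0.11). Their V genes had 41 and 62 counts, a log2 ratio of -0.60 (-1.21 to -0.01), or 35 and 38 counts (-0.12, -0.83 to 0.58) without *Trdv4*, left out after seeing the data.

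Macrophage genes summed to 1000 counts in CL and 1068 in Ctrl and went in both directions. Of the 8 with at least 20 counts, only *C1qc* was 2-fold apart, lower in CL (6 and 16). *Mrc1* had 86 and 168 counts (log2 ratio -0.97, -1.36 to -0.59), while *Mertk* had 421 and 353 and *Csf1r* 89 and 64. Dendritic cell genes summed to 812 and 927, with 1 of 6 at least 2-fold lower. MHC class II genes, which B cells and dendritic cells also express, were at least 2-fold higher in CL for 5 of 9 genes and 2-fold lower for none of them, and the list summed to 16303 and 3815 counts. The luminal list was lower in CL (87314 and 149985 counts, with 1 of 8 genes at least 2-fold lower). None of the 8 basal and myoepithelial genes was 2-fold apart (median 0.08). The part of MHC class II or luminal cells in the immunoglobulin values was not tested.

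**Figure D5:**
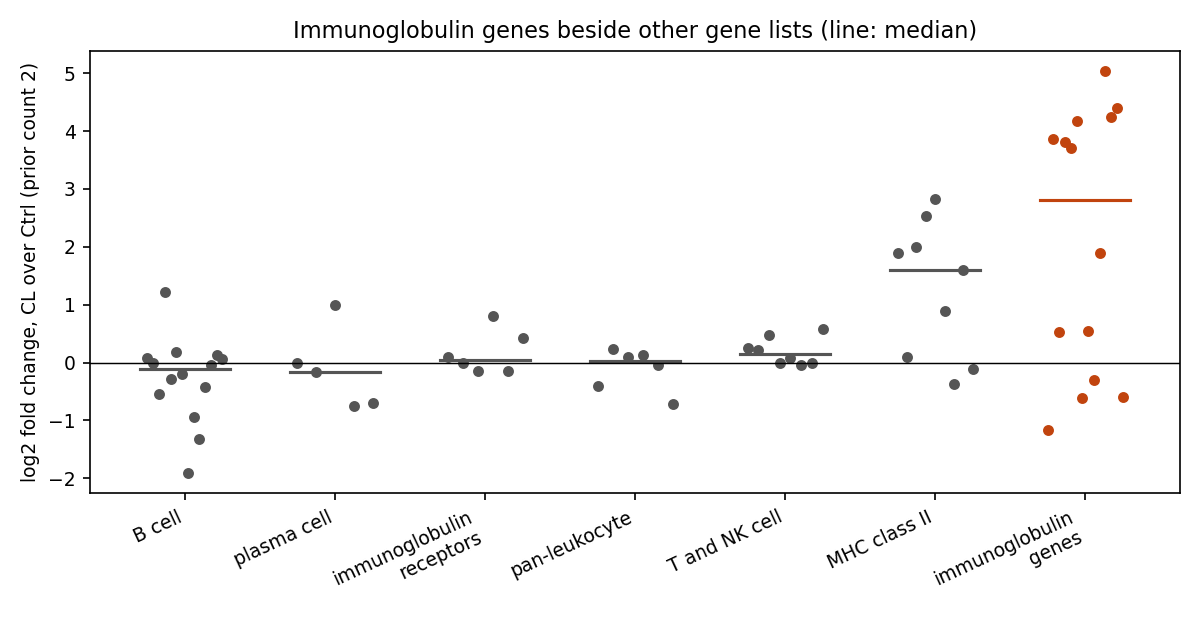
Log2 fold change of CL over Ctrl (y axis, prior count of 2) for each gene with at least 20 summed counts in 6 lists and in the immunoglobulin genes, with a line at each median. The B cell, plasma cell, receptor, pan-leukocyte and T and NK cell medians lie between -0.16 and 0.15, MHC class II at 1.60 and the immunoglobulin genes at 2.80.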

How the data were processed

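RNA of sorted basal cells was sequenced on an Illumina instrument, with 1 library per group. The authors deposited raw read counts per gene, in a table laid out like featureCounts output. The submitters' processing notes name the builds GRCm38 and mm10. The aligner, annotation release, read length and use of strand are not given in the sources used here. Of the 393 members, 390 had the same chromosome, start and end in GENCODE release M21. The authors' own ratio and log2 ratio columns were not used.

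Members matched Ighv, Ighd, Ighj, Ighm, Ighg, Igha, Ighe, Igkv, Igkj, Igkc, Iglv, Iglj or Iglc at the start of the gene name (*Ighmbp2* left out), and genes with at least 20 summed counts were named. Members and lists were chosen with earlier results of these data known. Library totals were adjusted with TMM factors computed in edgeR 4.0.16 (R 4.3.3) before ratios were taken. Ratios carry exact (Clopper-Pearson) 95% binomial intervals from scipy 1.17.1. Fold changes over all genes used a prior count of 2 and a threshold of 2-fold. No test was run, since 1 library per group allows none. Alternatives were other scalings (DESeq2 1.42.0 size factors among them), prior counts, filters, thresholds, a thinned library and leaving out genes. Fold calls and intervals were tried on simulated counts drawn independently for each gene. Mates and shared reads counted more than once were not simulated, so their effect on the intervals was not covered. Single values of some listed genes are not reported here.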

Additional observations from a re-analysis of the deposited data

How the results depend on the processing

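Under other scalings and with the deeper library thinned, the sums of heavy, kappa and lambda constant genes, of heavy, kappa and lambda V genes, of all J genes and of all immunoglobulin genes stayed within their intervals. The J sums of single chains were not recomputed. Leaving out the gene with the most counts moved the log2 ratio of heavy chain constant genes from 0.67 to 1.05 (without *Ighm*), of heavy chain V genes from 1.16 to 3.17 (without *Ighv7-1*), of kappa V genes from 2.05 to 1.49 (without *Igkv1-88*), of J genes from 0.83 to 1.41 (without *Igkj1*) and of all immunoglobulin genes from 0.84 to 1.02 (without *Ighm*). Lambda constant genes, -0.27 in all, came to 0.32 without *Iglc3*. Lambda V genes gave no ratio without *Iglv3*, nor lambda constant genes without those that overlap another gene, and the kappa constant class is 1 gene.

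With at least 100 summed counts, 1 of 4 immunoglobulin genes was 2-fold higher and 1 lower, and of 13507 genes in all 65 were higher (0.481%) and 246 lower (1.82%). With at least 1 summed count, 18 of 69 immunoglobulin genes were higher and 17 lower, and of 24944 genes in all 1342 were higher (5.38%) and 3207 lower (12.9%). There, genes with 2 counts in Ctrl and 0 in CL counted as lower, while those with 2 in CL and 0 in Ctrl fell just short of higher. Part of the lean towards lower comes from these ties, as does the near-even split of the 69 immunoglobulin genes. With a threshold of 1.5-fold, 3 immunoglobulin genes were lower, and 1100 of all genes were higher and 2029 lower, beside 360 and 830 at 2-fold. Without the lambda constant genes that overlap another gene, the kappa share was 100% in CL and 98.3% in Ctrl. These genes, *Iglc2* and *Iglc3*, held nearly all lambda constant counts. The rise thus follows from leaving them out and does not show how stable the share is. For the 14 single genes, 98 of 98 values under scalings, prior counts, halved counts and the thinned library, chosen after seeing the data, kept their side of 2-fold. No paired analysis was possible because neither group had more than 1 library. Depth limits all genes under about 20 counts.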
